A study of Homo sapiens with 12 samples.

Results

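The mitochondrial ribosomal protein genes were followed in DLD-1 cells after rapid removal of the elongation factor SPT6 or of PAF1. Members were chosen by name alone, as the human genes called MRPL or MRPS followed by a number and at most 1 letter. Of the 60666 human genes in the table, 78 met this rule. Of these, 51 belong to the large subunit of the mitochondrial ribosome, 26 to the small subunit, and MRPS36 to neither. MRPS30 and MRPS18A are counted with the large subunit, where their proteins sit despite their names. Counts were high enough to test 76 members. The remaining ones, MRPS24 with 1 to 18 reads per library and MRPL53 with 0 to 14, were left out of every count of calls.

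The mitochondrial ribosome makes the few proteins that mitochondrial DNA encodes, all of them parts of the respiratory chain or of ATP synthase. Its ribosomal RNAs are made inside the organelle, but every one of its proteins is encoded in the nucleus, transcribed by RNA polymerase II and imported. Some of these proteins descend from bacterial ribosomal proteins and others exist in mitochondria only. SPT6 is a histone chaperone found on elongating RNA polymerase II, and PAF1 is the namesake subunit of the PAF1 complex, which also binds the polymerase during elongation.

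DLD-1 is a colorectal adenocarcinoma line, and all cells constitutively expressed OsTIR1, a plant receptor that targets proteins carrying an auxin-inducible degron (AID) for destruction once auxin is present. Polyadenylated RNA was sequenced from cells of genotype SPT6-AID OsTIR1 and of genotype PAF1-AID OsTIR1, each after 0, 2 or 6 h in 500 µM auxin, with 2 libraries in each of the 6 groups. The stated aim of the series was to examine what SPT6 does in human cells by acute depletion. The labels include no auxin-treated cells without a degron tag, so a response to auxin itself cannot be told apart from loss of the tagged protein, and they do not say whether the libraries of a group came from separate cultures. All p-values therefore rest on the difference between libraries of a group, and this difference may be technical. The degron acts on protein, so mRNA levels do not check the depletion, and each line may be a single clone, which the labels do not state.

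Libraries held 31957953 to 115904780 reads, and the members took 0.368 to 0.483% of the human reads in them. Of the 12 markers of colorectal epithelium, EPCAM, CDH1, KRT8, KRT18 and KRT19 were abundant. CDX2, KRT20, CLDN4 and ELF3 had at least 129, 108, 145 and 34.6 CPM (read counts scaled to 1000000 human reads) in every library. VIL1 and CDX1 were at or near 0 (at most 0.239 and 0 CPM), and LGALS4 did not pass 0.605 CPM. Summed markers of blood cells reached 1.89 CPM, of fibroblasts 5.89 CPM and of endothelium 2.35 CPM, against 3811 to 6765 CPM for the 12 epithelial markers. In these bulk libraries a fall in a transcript's share from fewer expressing cells and one from less RNA per cell cannot be told apart. CPM values below are scaled by edgeR's trimmed mean of M-values (TMM), so they are shares of human mRNA rather than amounts per cell.

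Before auxin the members were moderately abundant and covered a wide range. On the scale of CPM per kilobase of transcript, averaged over the 4 libraries at 0 h, their level ran from 0.604 to 125 with a median of 19.3, against a median of 2.56 for all 20791 genes tested. MRPS34, of the small subunit, had the highest level per kilobase at 124.40 ± 6.74 in SPT6-AID cells and 124.8 ± 43.9 in PAF1-AID cells (SD, n = 2), followed by MRPL41 at 110 and MRPL51 at 85.5. MRPL3, a core protein of the large subunit, stood at 65.1 CPM per kilobase and MRPL46 was lowest at 0.604. The spread of MRPS34 between the PAF1-AID libraries exceeded the step to MRPL41, so the order at the top is not resolved. No member differed between the untreated lines by edgeR's quasi-likelihood test after Benjamini-Hochberg adjustment over all genes (adjusted p under 0.05), where 0.0337% of all genes did (0.0289% lower and 0.00481% higher in PAF1-AID cells). DESeq2 and limma-voom called none either. In edgeR 5 members had an unadjusted p under 0.05, as did 6.6% of all genes. These members were led by MRPS18C at 0.63 ± 0.18 and MRPL1 at 0.68 ± 0.22 (SE, log2 scale). The median member difference, PAF1-AID minus SPT6-AID, was 0.056 on the log2 scale against 0.0031 for all genes.

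At 2 h of auxin no member passed in either line with edgeR, DESeq2 or limma-voom, fitted without a term for the replicate number. Counts from an edgeR fit with such a term are given at the end. In SPT6-AID cells 0.548% of all genes passed (0.462% lower and 0.0866% higher), and in PAF1-AID cells 0.149% (0.0818% lower and 0.0673% higher), so a count of 0 among 76 members is near the background. The member medians were -0.011 (SPT6-AID) and -0.013 (PAF1-AID) on the log2 scale, beside 0.012 and 0.010 over all genes. Members were also tightly spread, with an SD of log2 changes of 0.127 and 0.135 where all genes had 0.522 and 0.572. Levels differ too, with a median at 0 h of 19.3 CPM per kilobase against 2.56 for all genes. The spreads were not compared at like levels. Unadjusted p-values under 0.05 numbered 2 in SPT6-AID cells, MRPL44 and MRPS30, and 1 in PAF1-AID cells, MRPL50. Over all genes 7.42% and 7.39% had one. Both libraries at 2 h lay below both at 0 h for 5 members in SPT6-AID cells (6.58%, where all genes had 17.9%) and above them for 9 (11.8% against 14.7%). In PAF1-AID cells 11 members lay below without overlap (14.5% against 18.6%) and 5 above (6.58% against 17.2%).

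**Figure D1:**
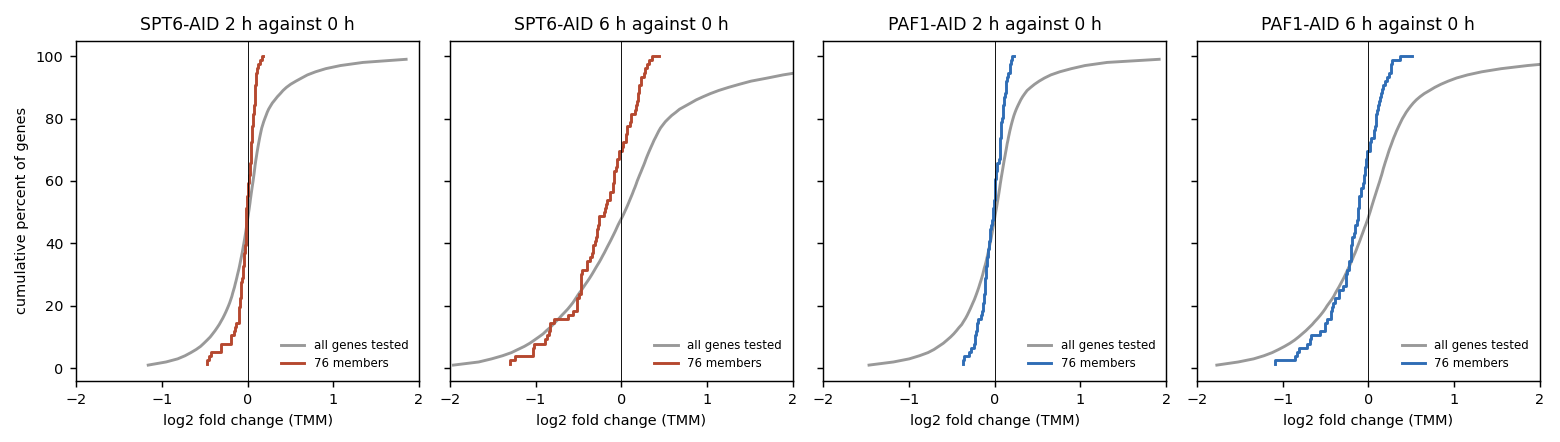
Cumulative percent of genes (vertical axis) against the fitted log2 fold change from 0 h (horizontal axis, shown from -2 to 2) for the 76 members tested (coloured) and all genes tested (grey), in each line at 2 and 6 h. Member curves are steeper than those of all genes in the 4 panels, and at 6 h they sit to the left at the median, at -0.19 in SPT6-AID cells and -0.12 in PAF1-AID cells.

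After 6 h without SPT6, 17 of 76 members fell and none rose in edgeR's main fit, without a replicate term, while DESeq2 called the same 17 and 1 rise. That is 22.4% of members, close to the 25.2% of all genes that passed in either direction; 16.4% of all genes fell and 8.76% rose. The median member change was -0.186 on the log2 scale, against 0.038 for all genes. All members are protein-coding, but only 13663 of the 20791 genes tested are. Among tested genes with a promoter entry, 21.82% of those without the YY1 motif described below fell (median -0.067). With that motif 35.43% fell (median -0.27). Of the 76 members 52 lay below 0, where 47.83% of all genes did. Of the 17, 5 fell at least 2-fold and the smallest fall was 0.40 on the log2 scale. In 38 members (50%, where all genes had 31.0%) both 6 h libraries lay below both 0 h libraries, and in 9 (11.8%, against 27.7%) they lay above. Unadjusted p-values under 0.05 numbered 29 among the members, where 36.3% of all genes had one. The summed member level went from 4074 and 4360 CPM at 0 h to 3523 and 4088 CPM at 6 h, ranges that overlap. Over the same time the share of human reads from the protein-coding genes of mitochondrial DNA went from 2.27 and 2.32% to 3.63 and 3.68%. In PAF1-AID cells it went from 1.54 and 2.05% to 2.95 and 2.09%. Its part in the members' values was not tested.

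**Figure D2:**
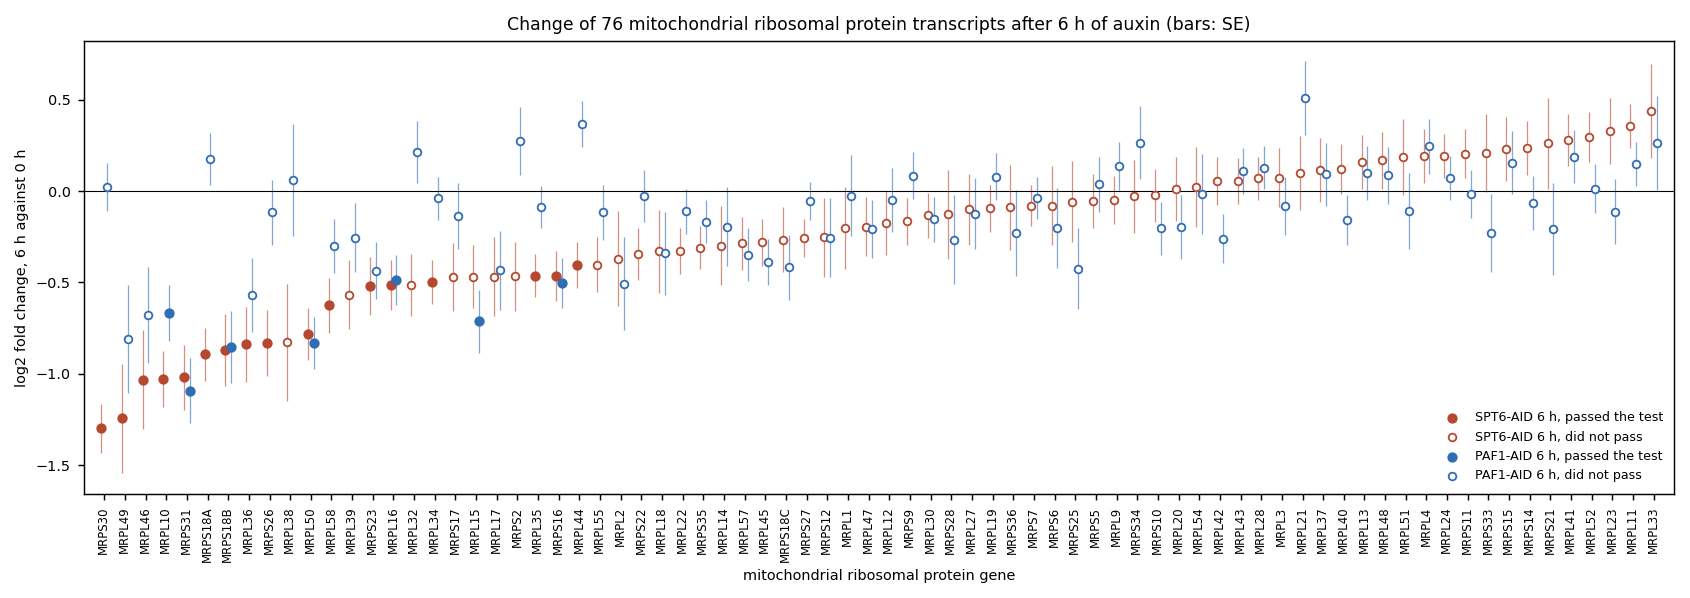
Fitted log2 fold change (vertical axis, bars are SE) at 6 h against 0 h for each of the 76 members, ordered by the SPT6-AID value, with SPT6-AID in red and PAF1-AID in blue and filled points for those that passed the test. The 17 filled red points lie between -1.30 and -0.40, the 7 filled blue points between -1.09 and -0.49, and no filled point is above 0.

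MRPS30, a mitochondria-specific protein of the large subunit (ENSG00000112996, chr5:44808925-44820428 on the plus strand, GRCh38, 5 exons), fell furthest. Its level in SPT6-AID cells was 50.5 and 45.3 CPM at 0 h, 39.1 and 38.2 CPM at 2 h, and 20.8 and 18.2 CPM at 6 h. The 3 times did not overlap, and the 6 h change was -1.30 ± 0.13 (SE, log2 scale) with an adjusted p of 0.000202. MRPL49 (ENSG00000149792, chr11:65122183-65127371, plus strand), also found in mitochondria only, stood at 80.6 and 61.8 CPM at 0 h, 71.7 and 52.5 CPM at 2 h, and 41.1 and 18.8 CPM at 6 h. The 6 h libraries were both the lowest but far from each other, and the change of -1.24 ± 0.30 carried the largest error of the 17 (adjusted p = 0.0123). MRPL46 (ENSG00000259494, chr15:88459476-88467419, minus strand), a protein of the central protuberance, was scarce throughout, at 4.16 and 3.23 CPM at 0 h, 2.55 and 2.79 CPM at 2 h, and 2.22 and 1.36 CPM at 6 h. It changed by -1.03 ± 0.27 (adjusted p = 0.0178), with no overlap between 0 and 6 h.

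The 120 bases that precede the RefSeq start of these 3 genes are given 5′ to 3′ on the gene's strand (GRCh38.p14), because these genes had the largest falls. The letters of the 3 motifs searched further on do not occur in these stretches.
MRPS30, chr5:44808827-44808946, plus strand: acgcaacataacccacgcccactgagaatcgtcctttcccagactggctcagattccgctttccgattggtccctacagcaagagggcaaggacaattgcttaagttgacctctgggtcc
MRPL49, chr11:65122063-65122182, plus strand: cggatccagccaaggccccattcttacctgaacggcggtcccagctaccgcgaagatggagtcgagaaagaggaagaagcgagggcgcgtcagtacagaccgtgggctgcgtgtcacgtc
MRPL46, chr15:88467389-88467508, minus strand: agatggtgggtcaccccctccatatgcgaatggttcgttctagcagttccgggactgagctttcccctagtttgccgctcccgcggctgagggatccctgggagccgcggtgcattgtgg

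Among large subunit proteins placed here with bacterial descent, MRPL10 and MRPL36 fell most. The S18 paralogue MRPS18A was placed with the mitochondria-specific proteins and is given further on. MRPL10 forms the base of the stalk that recruits translation factors (ENSG00000159111, chr17:47823272-47831534, minus strand). In SPT6-AID cells MRPL10 stood at 46.3 and 52.6 CPM before auxin, 41.5 and 51.1 CPM after 2 h, and 25.9 and 22.5 CPM after 6 h. The 2 h libraries overlapped those at 0 h and the 6 h libraries were below all others, with a change of -1.03 ± 0.15 (adjusted p = 0.00104). MRPL12, the stalk protein that sits on MRPL10, did not pass: it had 31.4 ± 4.09 CPM at 0 h and 27.7 ± 3.87 CPM at 6 h (SD, n = 2), overlapping, with a change of -0.18 ± 0.18 (SE). MRPL12 shares 68.2% of its exon bases with another gene on the same strand, so its counts are uncertain. MRPL36 (ENSG00000171421, chr5:1798386-1801366, minus strand) went from 22.4 and 27.7 CPM to 12.7 and 15.3 CPM at 6 h, by -0.84 ± 0.21 (adjusted p = 0.0133). MRPL3 had 162 and 181 CPM at 0 h and 161 and 200 CPM at 6 h, a change of 0.07 ± 0.16. Smaller falls, of 0.46 to 0.52 on the log2 scale, passed for MRPL16, MRPL34 and MRPL35.

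The large subunit also carries proteins with roles beyond the ribosome's core. MRPS18A, the S18 paralogue of the large subunit (ENSG00000096080, chr6:43671303-43687791, minus strand), had 39.1 and 41.9 CPM at 0 h, 35.5 and 40.2 CPM at 2 h, and 20.6 and 23.0 CPM at 6 h. It fell by 0.89 ± 0.14 on the log2 scale (adjusted p = 0.0015), with overlap between 0 and 2 h and none between 2 and 6 h. MRPL50 (ENSG00000136897, chr9:101387633-101398614, minus strand) went from 31.0 and 31.5 CPM through 24.5 and 25.9 CPM at 2 h to 17.6 and 18.8 CPM at 6 h, with no overlap between times and a 6 h change of -0.78 ± 0.14 (adjusted p = 0.0029). MRPL58, a peptidyl-tRNA hydrolase built into the subunit, fell by 0.62 ± 0.15. MRPL44, which resembles ribonuclease III (ENSG00000135900, chr2:223957404-223967714, plus strand), followed another course. It had 32.4 and 36.0 CPM at 0 h, 24.1 and 26.7 CPM already at 2 h, and 26.8 and 24.8 CPM at 6 h. Its 2 h change of -0.42 ± 0.13 missed the threshold (adjusted p = 0.243) and its 6 h change of -0.40 ± 0.13 passed narrowly (adjusted p = 0.0406). MRPL45, which anchors the large subunit at the inner membrane, did not pass, at -0.28 ± 0.13.

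In the small subunit 5 of 25 tested members fell. MRPS31 (ENSG00000102738, chr13:40729135-40771173, minus strand), found in mitochondria only, had 32.6 and 39.4 CPM at 0 h, 31.6 and 36.0 CPM at 2 h, and 14.9 and 20.6 CPM at 6 h. Levels at 0 and 2 h overlapped and those at 6 h were well below, a change of -1.02 ± 0.18 (adjusted p = 0.00244). MRPS18B, an S18 paralogue of the small subunit (ENSG00000204568, chr6:30617709-30626395, plus strand), went from 58.0 and 66.8 CPM to 34.4 and 33.8 CPM, by -0.87 ± 0.20 (adjusted p = 0.00935). Its sister MRPS18C went from 39.0 and 35.0 CPM to 28.0 and 33.5 CPM and did not pass, at -0.27 ± 0.18. MRPS26 and MRPS23, mitochondria-specific, and MRPS16, of bacterial descent, fell by 0.83, 0.52 and 0.46 on the log2 scale. MRPS12, a protein of the decoding centre, had -0.25 ± 0.22, MRPS22 -0.35 ± 0.14 and MRPS27, a pentatricopeptide repeat protein, -0.26 ± 0.11, all short of the threshold. MRPS36, described as part of the 2-oxoglutarate dehydrogenase complex rather than of the ribosome, had 13.2 and 17.5 CPM at 0 h and 11.4 and 17.5 CPM at 6 h, a change of -0.09 ± 0.23.

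**Figure D3:**
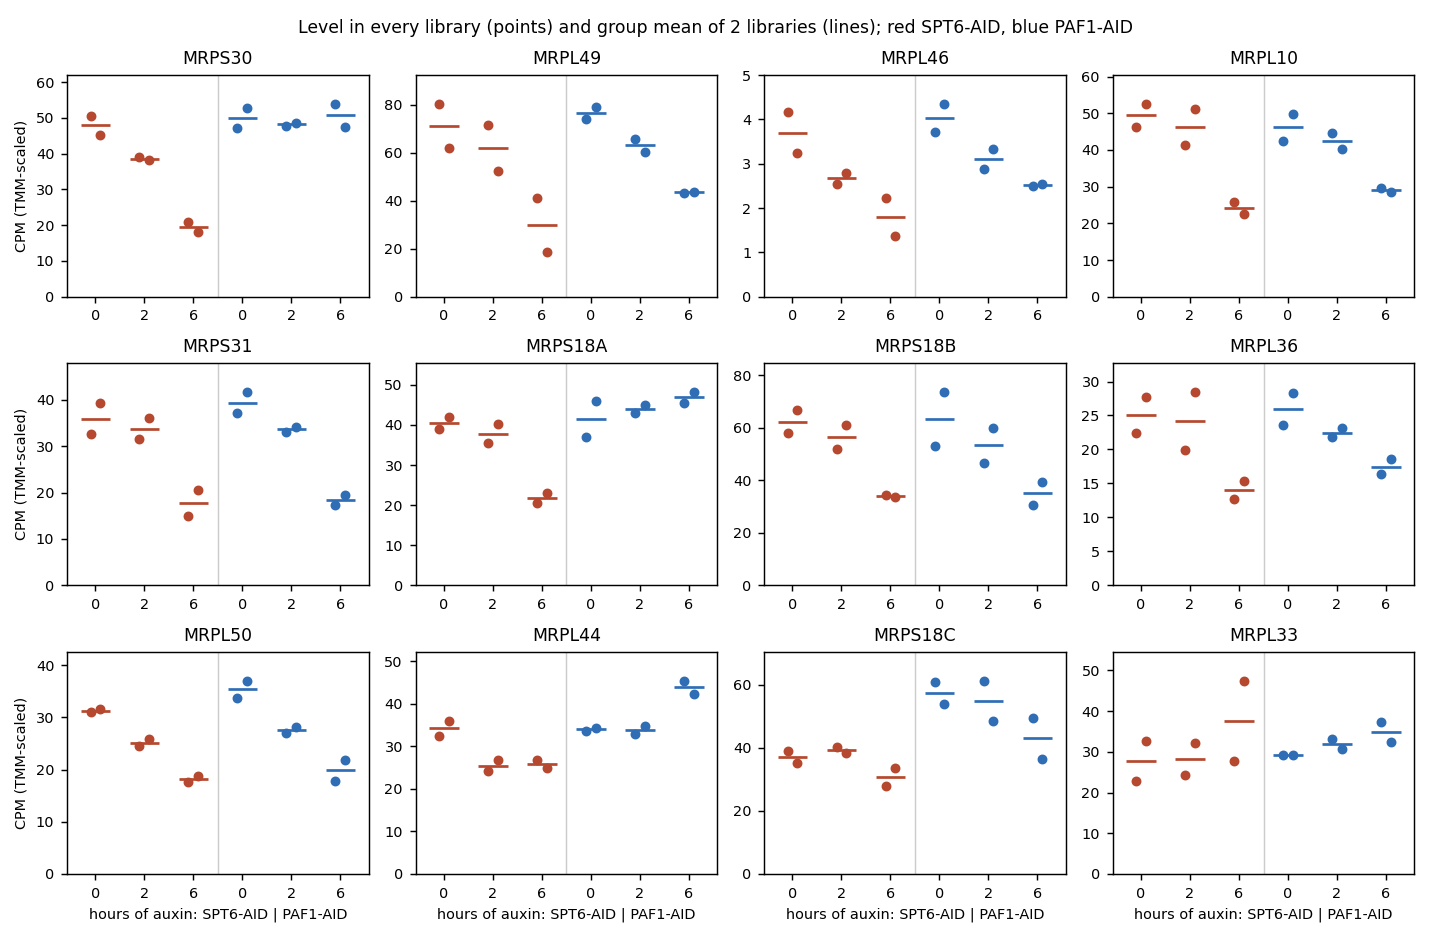
TMM-scaled CPM (vertical axis, from 0) in each of the 12 libraries (points) with the mean of the 2 libraries of a group (lines), by hours of auxin, for 12 members. MRPS30 ends at 20.8 and 18.2 CPM in SPT6-AID cells but at 54.0 and 47.4 CPM in PAF1-AID cells, whereas MRPS31 ends low in both lines, at 14.9 and 20.6 CPM and at 17.4 and 19.6 CPM.

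By class, 12 of 50 large subunit and 5 of 25 small subunit members fell, with medians of -0.20 and -0.16 on the log2 scale. Of all 20791 genes tested 16.4% fell, but only 13663 of the 20791 are protein-coding. Among tested genes with a promoter entry the share was higher, at 21.82% without the YY1 motif described below and 35.43% with it. Mitochondria-specific proteins accounted for 11 of the 17, out of 31 tested (median -0.31), and proteins of bacterial descent for 6 out of 44 (median -0.13). The first class holds the S18 paralogues MRPS18A and MRPS18B, both of which fell, while their sister MRPS18C was placed with the second. The size of the split by descent therefore depends on where these paralogues are placed. By gene length, 12 of 35 members of 5 to 20 kb fell, 4 of 19 shorter ones and 1 of 22 of 20 kb or more, MRPS31. Across the 76 members the change had a Spearman correlation of 0.138 with gene length and of 0.089 with the level at 0 h, where protein-coding genes had -0.196 and -0.257. These are descriptions over genes that share the same libraries.

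The highest changes were those of MRPL33, MRPL11 and MRPL23. MRPL33 had 22.7 and 32.7 CPM at 0 h and 27.7 and 47.5 CPM at 6 h, values that overlap (0.44 ± 0.26), and shares 21.1% of its exon bases with BABAM2 on the same strand. MRPL11, at 71.0 and 73.0 CPM at 0 h and 87.5 and 96.7 CPM at 6 h, did not overlap but missed the threshold at 0.35 ± 0.12 (adjusted p = 0.0557). It passed as a rise with DESeq2 size factors, total counts, a minimum mean of 1 CPM and DESeq2's own test, and also without SPT6-AID 6 h replicate 1, when MRPL33 passed too, at 0.82. With fly totals as library sizes MRPL11 stood at -0.09, as MRPL33 and MRPL23 stood at -0.04 and -0.09. MRPL38, with the largest fall that did not pass, at -0.83 ± 0.32 (adjusted p = 0.0873), had 3.30 and 2.39 CPM at 0 h and 1.83 and 1.36 CPM at 6 h, and it shares 37.5% of its exon bases with another gene on its strand.

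After 6 h without PAF1, 7 members fell and none rose in edgeR's main fit, without a replicate term, while DESeq2 called the same 7 and 1 rise, MRPL44. This is 9.21% of members, where 10.9% of all genes passed in either direction, 6.70% lower and 4.20% higher. The median was -0.115 on the log2 scale against 0.018 for all genes. Among tested genes with a promoter entry 8.95% fell without the YY1 motif (median -0.015) and 11.42% with it (median -0.021). Groups did not overlap in 30 members that were lower (39.5%, against 27.1% of all genes) and 7 that were higher (9.21%, against 28.1%). An unadjusted p under 0.05 was found for 16 members and for 25.5% of all genes. The summed member level was 4019 and 4790 CPM at 0 h and 4074 and 4190 CPM at 6 h.

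MRPS31 led, from 37.1 and 41.7 CPM at 0 h through 33.2 and 34.2 CPM at 2 h to 17.4 and 19.6 CPM at 6 h. All 3 times were separate, and the change was -1.09 ± 0.18 (adjusted p = 0.00504). MRPS18B went from 53.1 and 73.7 CPM to 30.7 and 39.4 CPM (-0.86 ± 0.20, adjusted p = 0.0223), and MRPL50 from 33.7 and 37.0 CPM to 17.8 and 21.9 CPM (-0.83 ± 0.14, adjusted p = 0.00591). MRPL15, a large subunit protein of bacterial descent, went from 50.7 and 67.6 CPM to 34.6 and 37.6 CPM (-0.71 ± 0.17, adjusted p = 0.0271). The stalk base MRPL10 went from 42.5 and 49.7 CPM to 29.6 and 28.4 CPM (-0.67 ± 0.15, adjusted p = 0.0215). MRPS16 and MRPL16 fell by 0.50 and 0.49 on the log2 scale. In each of these 7 the libraries at 6 h lay below those at 0 h. MRPL49 and MRPL46, at -0.81 ± 0.30 and -0.68 ± 0.26, did not pass, and neither did MRPL45 at -0.39 ± 0.13 or MRPL44 at 0.37 ± 0.13.

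Of the members that fell, 6 did so in both lines: MRPS31, MRPS18B, MRPL50, MRPL10, MRPS16 and MRPL16. They are 35.29% of the SPT6-AID list and 85.71% of the PAF1-AID list, and for all genes the corresponding shares were 30.45% and 74.46%. MRPL15 passed in PAF1-AID cells alone, and it stood at -0.47 in SPT6-AID cells. Over the 76 members the 6 h changes of the lines had a Spearman correlation of 0.488 and a Pearson correlation of 0.554, beside 0.535 and 0.628 over all genes. The lines share no control library, but all 12 libraries share the fit.

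**Figure D4:**
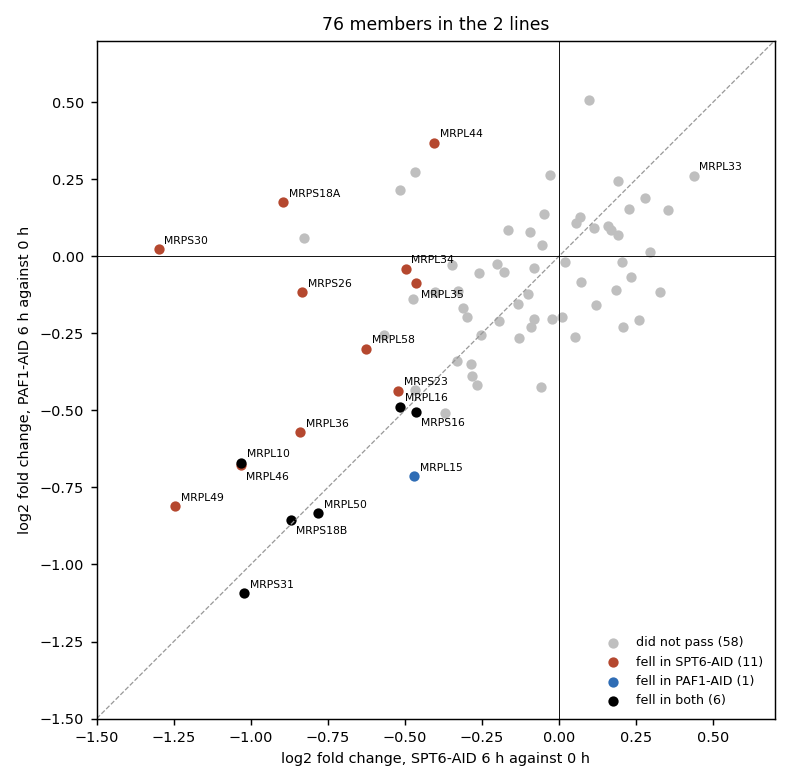
Log2 fold change at 6 h in SPT6-AID cells (horizontal axis) against that in PAF1-AID cells (vertical axis) for the 76 members, coloured by the line in which they passed. The dashed line marks equal changes. MRPS30, MRPS18A and MRPL44 stand near or above 0 on the vertical axis at 0.02, 0.18 and 0.37, with -1.30, -0.89 and -0.40 on the horizontal axis.

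The difference between the lines was tested directly, as the SPT6-AID change minus the PAF1-AID change. At 6 h it passed in the main fit for 3 members, all lower in the SPT6-AID response (3.95% of members, where 3.74% of all genes passed, 3.12% lower and 0.620% higher). For MRPS30 the PAF1-AID libraries had 47.1 and 52.8 CPM at 0 h, 47.9 and 48.5 CPM at 2 h, and 54.0 and 47.4 CPM at 6 h. These overlap throughout, unlike the SPT6-AID libraries, and the difference was -1.32 (95% interval -1.74 to -0.91, adjusted p = 0.0115). For MRPS18A they had 36.9 and 46.0 CPM at 0 h and 45.5 and 48.2 CPM at 6 h, and the difference was -1.07 (-1.52 to -0.62, adjusted p = 0.0226). For MRPL44 they had 33.5 and 34.3 CPM at 0 h and 45.4 and 42.2 CPM at 6 h, without overlap and upward, and the difference was -0.77 (-1.17 to -0.37, adjusted p = 0.0442). Among the other S18 paralogues MRPS18B had a difference of -0.015 (-0.63 to 0.60) and MRPS18C of 0.15 (-0.41 to 0.71), intervals wide enough to allow sizeable differences either way, and the paralogues were not tested against each other. At 2 h no member passed, where 0.0337% of all genes did (0.0192% lower and 0.0144% higher). There 1 member, MRPL44, had an unadjusted p under 0.05 (0.04), as did 2.53% of all genes. The 6 h calls did not hold under every alternative. With the fly reads as scale the differences were -1.36, -1.14 and -0.81 for MRPS30, MRPS18A and MRPL44, with adjusted p-values of 0.098, 0.0898 and 0.23. On that scale their PAF1-AID changes were -0.36, -0.20 and -0.02 in place of 0.02, 0.18 and 0.37. Leaving out a library ended the call of MRPS30 in 1 case of 12 (without PAF1-AID 0 h replicate 3), of MRPS18A in 6 and of MRPL44 in 12.

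Scaling sets the absolute size of the 6 h falls. TMM assumes that most genes keep their share, whereas the libraries also hold fly reads, and with fly totals as library sizes the median of all genes itself moved to -0.394 (SPT6-AID 6 h) and -0.368 (PAF1-AID 6 h) on the log2 scale. On that scale 47 members fell in SPT6-AID cells (61.8%, where 28.1% of all genes fell) and 25 in PAF1-AID cells (32.9% against 13.8%), among them all 17 and all 7 named above. All genes here include non-coding ones, and the share among genes with a promoter entry was not counted on that scale. A change of library sizes moves all genes nearly alike, so the member median minus that of all genes stayed near its TMM value, at -0.23 and -0.224 in SPT6-AID cells. It did move with the filter: with genes of a mean of at least 1 CPM the member median at 6 h without SPT6 was -0.075 and its distance from all genes -0.108. How much fly material was added, and at which step, is not given in the sources used here. MRPL3 turned from 0.07 to -0.38 in SPT6-AID cells on this scale (adjusted p = 0.0427).

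The number of calls also changed when single libraries were left out. Such a fit leaves 1 library in its group and has less precision, and the part of this in the counts was not tested. In SPT6-AID cells 11, 8 and 10 members fell without 0 h replicate 1, 0 h replicate 2 and 6 h replicate 1, and the median was -0.032 without 6 h replicate 1 and -0.33 without 6 h replicate 2. MRPL10, MRPL50, MRPS18A, MRPS26, MRPS30 and MRPS31 passed in all 12 leave-outs. In PAF1-AID cells 2, 0 and 3 members fell without 0 h replicate 4, 6 h replicate 3 and 6 h replicate 4, and no member passed in all 12.

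The promoters of many of these genes are known for binding sites of NRF1, of ETS factors such as GABP, and of YY1. RefSeq promoter sequences, from 250 bases before to 50 after the start, were at hand for 69 of the 78 members. Each motif was searched on both strands. The NRF1 consensus was present in 8 member promoters (11.59%, against 5.784% of all 35116 promoters), the ETS motif CCGGAAG in 29 (42.03% against 10.26%) and the YY1 motif AAGATGGCG in 13 (18.84% against 1.748%). Among promoters of genes tested here the overall shares were 10.85%, 17.79% and 3.666%. A match is a description of the letters and not a shown site of binding.

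Of the 12 tested members with the YY1 motif, 6 fell without SPT6 (50%, median -0.80), and of the 55 without it 9 fell (16.36%, median -0.13). Over all tested genes with a promoter entry the shares were 35.43% with the motif and 21.82% without. In PAF1-AID cells 2 of 12 members with it fell and 3 of 55 without it, with medians of -0.16 and -0.11, where all genes had 11.42% and 8.95%. These shares come from few genes, and the difference was given no test. In SPT6-AID cells 7 of 28 members with the ETS motif fell (25%, against 28.24% of all genes with it) and 8 of 39 without it (20.51%, against 21.04%). With the NRF1 motif 1 of 8 fell (12.5%, against 30.63%) and without it 14 of 59 (23.73%, against 21.31%).

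**Figure D5:**
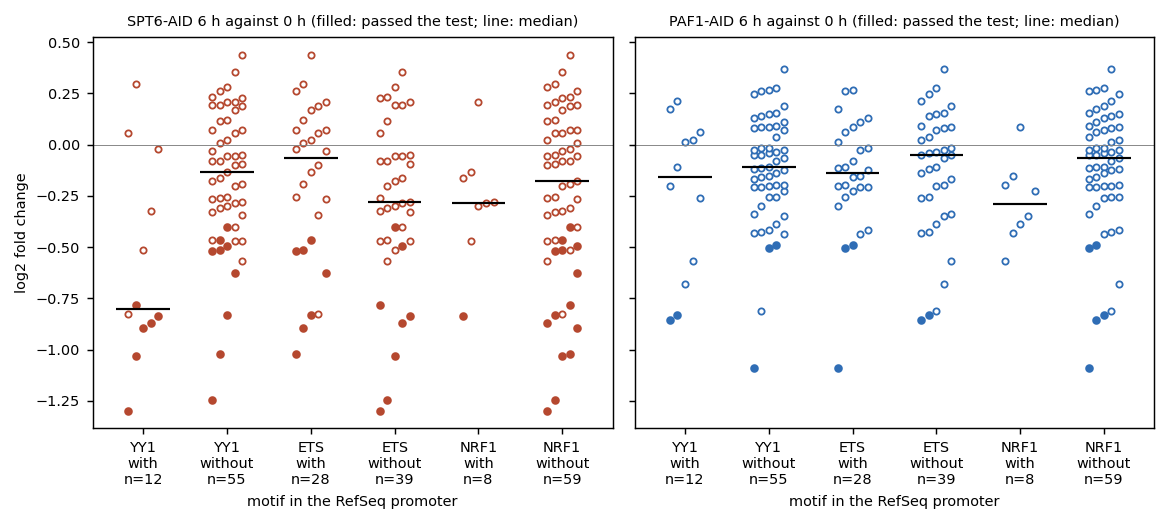
Log2 fold change at 6 h (vertical axis) of members whose RefSeq promoter holds or lacks each motif, in SPT6-AID (left, red) and PAF1-AID cells (right, blue), with filled points for those that passed and a black line at the median. In SPT6-AID cells the median with the YY1 motif is -0.80 and that without it -0.13, and in PAF1-AID cells they are -0.16 and -0.11.

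The windows around the YY1 motif are shown so that members that fell and members that did not can be read side by side. Each is read 5′ to 3′ in the direction of the motif, which is in capitals, and positions count from 1 at the RefSeq start. In the 6 members that fell the motif lay at 14 to 22 in MRPS30, 9 to 17 in MRPL46, 10 to 18 in MRPS18A, 24 to 32 in MRPS18B and MRPL50, and, on the opposite strand, at -36 to -28 in MRPL36.
MRPS30: atcgcgggcaAAGATGGCGgcggccaggt
MRPL46: gggagaacgaAAGATGGCGgcgcccgtaa
MRPS18A: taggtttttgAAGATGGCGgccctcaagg
MRPS18B: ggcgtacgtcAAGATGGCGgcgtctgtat
MRPL50: gatctcatcgAAGATGGCGgcgcgatctg
MRPL36: gccaggaaggAAGATGGCGgcgggggggg

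In the 6 tested members that hold the motif and did not pass, it lay at 7 to 15 in MRPL38, 9 to 17 in MRPL42, 10 to 18 in MRPS10, 36 to 44 in MRPL22, at -223 to -215 on the opposite strand in MRPL32, and at -98 to -90 and -64 to -56 in MRPL52.
MRPL38: ggccggagggAAGATGGCGgcgccctggt
MRPL42: ggattgaaacAAGATGGCGggttcgtggt
MRPS10: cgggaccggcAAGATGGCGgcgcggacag
MRPL22: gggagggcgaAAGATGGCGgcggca
MRPL32: tcttcgggtaAAGATGGCGgagcgcgggt
MRPL52, first site: acgatgacccAAGATGGCGgagccgtgat
MRPL52, second site: acccagattcAAGATGGCGacttcctgct

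The motif contains an ATG, and in 9 of the 13 members this ATG is an annotated start codon in GENCODE 29. That was so in 5 of the 6 members that fell (all but MRPL36) and in 3 of the 6 that did not (MRPL22, MRPL38 and MRPS10). The motif therefore overlaps the first coding bases in most of these genes, and its share in the members' promoters counts such start codons. Of the members with it that did not pass, MRPL38 and MRPL32 stood at -0.83 and -0.51, MRPL22 at -0.33, and MRPS10, MRPL42 and MRPL52 at -0.02, 0.05 and 0.30.

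Many members have an annotated start close to that of another gene. For 29 of them a protein-coding gene starts within 1000 bases on the opposite strand, pointing away, between outermost GENCODE 29 gene ends. These ends can differ from the RefSeq starts used above, so a shared promoter was not shown. MRPS22, paired with PRR23A, begins at chr3:139005806, but its RefSeq promoter holds a motif at chr3:139343907. MRPL36 begins at chr5:1801366, but the NRF1 motif before its RefSeq start lies at chr5:1799938. At 6 h without SPT6, 6 of these 29 members fell, and so did 11 of the 47 without such a partner, where 16.4% of all genes fell and 8.76% rose. A partner that fell too was found for 2 of the 6: MRPL50 with ZNF189 (-0.75 ± 0.17) and MRPS18B with PPP1R10 (-1.75 ± 0.20), a regulatory subunit of protein phosphatase 1. MRPL49 fell while its partner FAU, which encodes a cytosolic ribosomal protein, stood at 0.49 ± 0.24 without passing, and MRPL36 fell while NDUFS6, a complex I subunit, stood at 0.38 ± 0.14. MRPL46 and MRPS11, both members, face each other: MRPL46 fell by 1.03 on the log2 scale and MRPS11 had 0.21 ± 0.13, which was -0.24 with fly totals as library sizes. Among the 22 tested partners of members that did not pass, 8 fell, MRPL46 included, and 1 rose, PNPLA7 next to MRPL41. The helicase TWNK fell by 1.11 ± 0.16 while MRPL43 stood at 0.06. In PAF1-AID cells PPP1R10 had fallen already at 2 h (-2.17 ± 0.21, adjusted p = 0.0076), when MRPS18B stood at -0.25 without passing, and it stood at -1.84 ± 0.20 at 6 h. Whether the counting kept the strands apart is not given in the sources used here, so reads where such genes overlap are uncertain.

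Other genes that build or serve the mitochondrial ribosome were counted from lists drawn up by function. Of all genes tested, non-coding ones included, 16.4% fell in SPT6-AID cells and 6.70% in PAF1-AID cells. Among tested genes with a promoter entry but no YY1 motif the shares were higher, at 21.82% and 8.95%. Without SPT6 at 6 h, 18 of 32 assembly factors and ribosomal RNA modifying enzymes fell and none rose (median -0.52). Among them were the pseudouridine synthase RPUSD4 at -1.29 ± 0.12, the methyltransferase NSUN4 at -1.69 ± 0.21, the helicase DDX28 at -1.21 ± 0.17 and the GTPase GTPBP10 at -1.01 ± 0.15. In PAF1-AID cells 9 of the 32 fell (median -0.35), including GTPBP10 at -1.30 ± 0.15 and the methyltransferase TFB1M at -1.07 ± 0.18. DDX28 had passed at 2 h in SPT6-AID cells, at -0.99 ± 0.17 (adjusted p = 0.0375).

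Of 22 mitochondrial aminoacyl-tRNA synthetases and related enzymes, 9 fell without SPT6 (median -0.39), led by HARS2 at -1.24 ± 0.16 and MARS2 at -1.04 ± 0.15. MARS2 had passed at 2 h, at -1.08 ± 0.15 (adjusted p = 0.0143). Without PAF1, 3 fell, HARS2 at -1.13 ± 0.16 among them, and GATC, a subunit of the glutamyl-tRNA amidotransferase, rose by 0.46 ± 0.12. Translation factors were mixed in both lines, with 5 lower and 1 higher of 20. C12orf65, a release factor homologue, stood at -1.97 ± 0.21 without SPT6 and -1.39 ± 0.20 without PAF1, and the translational activator TACO1 passed as lower in both (adjusted p = 0.00282 and 0.0113). The release factor MTRF1L rose by 0.60 ± 0.14 without SPT6 and by 0.96 ± 0.14 without PAF1.

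The list for transcription of mitochondrial DNA and processing of its RNA also holds TWNK, a helicase of mitochondrial DNA. Of its 20 tested genes 9 fell without SPT6, among them the poly(A) polymerase MTPAP at -1.61 ± 0.19 and TWNK. Without PAF1, 4 fell and 2 rose, FASTKD5 by 1.11 ± 0.15 and TRMT10C, a subunit of mitochondrial ribonuclease P, by 0.56 ± 0.12. Of 9 tested regulators of nuclear genes for mitochondria, 7 fell without SPT6 (median -0.93), including NRF1 at -1.70 ± 0.24, the coactivator PPRC1 at -1.49 ± 0.19 and the transcription factor SP1 (adjusted p = 0.000746). Without PAF1, 2 of the 9 fell, GABPB1, a subunit of GABP, and SP1, at -0.83 ± 0.20 and -0.64 ± 0.14. Of 5 mitoribosome subunits with other names, PTCD3 fell in both lines, at -0.52 ± 0.12 and -0.56 ± 0.12. The rises depended on scale. With fly totals as library sizes MTRF1L stood at 0.17 without SPT6 and 0.57 without PAF1, GATC at 0.08 and TRMT10C at 0.18, none of which passed, while FASTKD5 still rose, at 0.73 (adjusted p = 0.0126). On that scale 26 of 32 assembly factors and modifying enzymes fell without SPT6 and 17 without PAF1.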

How the data were processed

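The deposited table holds whole-number counts of reads per gene for 12 libraries, not normalized by the authors, per the labels and the values. RNA was selected with poly(A) beads and libraries made with a directional kit, per the labels' protocols. The submitters' processing notes name cutadapt 1.14, STAR 2.7.5 and featureCounts 2.0.0 with the builds GRCh38 and BDGP6 (fly). The annotation release and strand setting are not given in the sources used here. The 17807 fly genes were kept out of the main test. Human genes were filtered with filterByExpr by group, scaled by TMM and fitted in edgeR 4.0.16 (R 4.3.3) with 6 group means over all 12 libraries, 6 residual degrees of freedom, quasi-likelihood tests and Benjamini-Hochberg adjustment over 20791 genes. DESeq2 1.42.0, limma 3.58.1 (voom) and other scalings and filters were alternatives. Libraries of a group differed beyond sampling noise, with a chi-square of 34.1 to 63.1 per degree of freedom. Positions, exons, overlaps and start codons come from GENCODE 29. Members named are the 8 largest changes per direction against 0 h and 5 in other comparisons, among those that passed, plus members with a known special role. From each list up to 4 genes with the smallest p per comparison are named. MRPL38, MRPL11, MRPL33, MRPL23, MRPL1, the members at the ends of the level range, the falls beyond the largest 8, the partners and the holders of the YY1 motif were named after their values were seen. Members and lists were chosen with earlier results of these data known. Depth was high, so the spread between 2 libraries limits precision, and intervals cover only that spread.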

Additional observations from a re-analysis of the deposited data

Results flagged for a closer look

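The responses of the lines differed for 3 members at 6 h by the test of the difference itself, the SPT6-AID change minus the PAF1-AID change. The difference was -1.32 for MRPS30, -1.07 for MRPS18A and -0.77 for MRPL44, all on the log2 scale. MRPS30 and MRPS18A fell in SPT6-AID cells and did not pass in PAF1-AID cells. MRPL44 fell in SPT6-AID cells and stood at 0.37 in PAF1-AID cells. This was a rise under DESeq2's Wald test (adjusted p = 0.0386) and not in edgeR's main fit (adjusted p = 0.0938). The edgeR fit with a replicate block, described below, called it a rise. With fly totals as library sizes MRPL44 stood at -0.02 in PAF1-AID cells, and none of the 3 differences passed. Leaving out each of the 12 libraries in turn kept the difference of MRPS30 in 11 cases, that of MRPS18A in 6 and that of MRPL44 in 0.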

How the results depend on the processing

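With fly totals as library sizes the members' medians were -0.14 (SPT6-AID 2 h), -0.624 (SPT6-AID 6 h), -0.228 (PAF1-AID 2 h) and -0.492 (PAF1-AID 6 h), 47 and 25 members fell at 6 h, 0 members differed between the lines, and MRPL3 turned to -0.379 in SPT6-AID cells. The 6 h median was -0.075 in SPT6-AID cells with a minimum mean of 1 CPM and -0.212 in PAF1-AID cells with total counts. Fitting SPT6-AID libraries alone left 8 falls, and PAF1-AID libraries alone gave 1 rise (MRPL21). In SPT6-AID cells at 6 h DESeq2 size factors, total counts and DESeq2's Wald test each gave 1 rise (MRPL11), and a minimum mean of 1 CPM gave 2 (MRPL11 and MRPL52). DESeq2's Wald test gave 1 rise in PAF1-AID cells (MRPL44), and without a filter 1 member, MRPL1, was higher in untreated PAF1-AID cells. All 17 and all 7 falls remained with DESeq2's Wald test and voom. Of them 14 and 5 remained with DESeq2 size factors, 16 and 7 with total counts, 15 and 6 without a filter, and 14 and 7 with the 1 CPM minimum. Leaving out each library in turn gave 8 to 20 falls and 0 to 2 rises (median -0.33 to -0.032) in SPT6-AID cells at 6 h, and 0 to 8 falls and 0 to 1 rise (median -0.216 to -0.031) in PAF1-AID cells. For the difference of the lines at 6 h it gave 0 to 2 lower members (median -0.189 to 0.133), and the call was lost for MRPS30 in 1, for MRPS18A in 6 and for MRPL44 in 12 leave-outs. At 2 h and for untreated lines no leave-out gave a call, and the medians were -0.112 to 0.051, -0.105 to 0.108, -0.146 to 0.116 (difference of lines) and -0.075 to 0.178 (untreated). The causes were not tested. Replicate numbers are shared across times within a line, but the labels do not say what they mean. Same-numbered libraries deviated together (correlations 0.491 to 0.66 over all genes and 0.589 to 0.838 over the members, only 2 numbers a line). In SPT6-AID cells the edgeR fit with the replicate block gave 2 falls at 2 h, and 35 falls and 6 rises (MRPL11, MRPL33, MRPL23, MRPL41, MRPL52 and MRPS21) at 6 h. In PAF1-AID cells it gave 1 fall at 2 h, and 21 falls and 6 rises (MRPL44 among them, adjusted p = 0.00535) at 6 h. In the 6 h difference it gave 10 lower and 4 higher members.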
